A study of Homo sapiens with 2 samples.

Results

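A small group of dividing cells was present in a culture of human adipose-derived mesenchymal stem cells treated with transforming growth factor beta 1 (TGFB1). These are the cells of the TGFB library that the authors' clustering placed in cluster 8. They number 348 of the 12555 cells of that library, or 2.77% (95% exact binomial interval 2.49 to 3.07), and of 20656 cells in the whole series. They were set against the 10267 cells of the large clusters 0, 3 and 4 of the same library, and against the 842 cells of cluster 6 of the untreated library (UNTR), the dividing cells of the untreated culture. Cluster 6 made up 10.4% of the 8101 untreated cells (9.74 to 11.1).

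Both cultures came from one commercial source of mesenchymal stem cells from adipose tissue, with 1 library per condition. Cultures close to confluence were starved of serum overnight. TGFB1 at 10 ng/mL was then added to one for 24 h, and the other received none. Cells were detached with trypsin and frozen before single-cell sequencing, and transcripts were counted as unique molecular identifiers (UMIs). The study asks about stromal cells that produce interleukin 11, and dividing cells are one setting in which its transcript can be followed. With a single library per condition, differences could not be checked in replicates and the treatment could not be tested. Every interval below is at the 95% level, covers only the error of counting, and compares these sets of cells, not the conditions.

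A dividing cell copies its DNA in S phase and separates the copies in mitosis. Genes for DNA copying are switched on by E2F factors as S phase begins, through E2F sites in their promoters. Genes for mitosis are switched on later by a complex that reads an element called the cell cycle homology region (CHR), often beside CCAAT boxes. TGFB1 is known to slow division of many cell types in part by raising the cyclin-dependent kinase (CDK) inhibitor CDKN2B, and it turns fibroblasts into contractile myofibroblasts.

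The promoters of a pair of mitotic and a pair of replication genes are printed to show these elements. Each is the 200 bases just before the RefSeq start (GRCh38.p14), read 5′ to 3′ on the gene's own strand, with CHR, CCAAT and E2F matches in capitals. HMMR is at chr5:163460432-163460631 (plus strand), CDC20 at chr1:43358781-43358980 (plus), TYMS at chr18:657453-657652 (plus) and MCM3 at chr6:52284743-52284942 (minus).
HMMR: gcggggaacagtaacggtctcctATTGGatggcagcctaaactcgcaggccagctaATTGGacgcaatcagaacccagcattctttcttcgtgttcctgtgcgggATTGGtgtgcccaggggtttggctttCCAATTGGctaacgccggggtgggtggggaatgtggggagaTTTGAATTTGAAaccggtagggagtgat
CDC20: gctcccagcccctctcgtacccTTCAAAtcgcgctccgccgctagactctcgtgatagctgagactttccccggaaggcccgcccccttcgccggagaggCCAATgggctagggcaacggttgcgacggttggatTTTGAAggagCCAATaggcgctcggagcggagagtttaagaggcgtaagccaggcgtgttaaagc
TYMS: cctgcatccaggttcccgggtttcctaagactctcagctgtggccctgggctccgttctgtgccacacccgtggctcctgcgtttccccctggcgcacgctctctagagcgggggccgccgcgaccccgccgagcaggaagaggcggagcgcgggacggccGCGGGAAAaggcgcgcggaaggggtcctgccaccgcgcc
MCM3: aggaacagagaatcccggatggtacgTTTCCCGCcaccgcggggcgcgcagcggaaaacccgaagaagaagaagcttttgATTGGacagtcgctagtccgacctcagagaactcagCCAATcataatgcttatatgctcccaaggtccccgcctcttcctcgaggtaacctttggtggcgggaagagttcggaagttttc
HMMR, a spindle protein, had 2 CHR matches, CDC20, the activator of the anaphase-promoting complex, also had 2, and neither had an E2F match. TYMS, which makes thymidylate, and MCM3, of the replicative helicase, each had 1 E2F match and 0 CHR matches. The letters searched on both strands were TTTGAA and TTCGAA for the CHR, CCAAT for the CCAAT box, and TTTCCCGC, TTTCGCGC, TTTGCCGC and TTTGGCGC for E2F. In windows from 250 bases before to 50 after the start, a CHR match was present in 65.8% of 111 mitotic genes, 8.62% of 58 replication genes and 16.6% of all 27305 genes. An E2F match was present in 7.21%, 39.7% and 3.33% of them. A CCAAT match was present in 68.5%, 55.2% and 35.7%. A match is a description of the letters, not a site.

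The label of the cells held against their markers, all 5 of which were detected. MKI67, a protein of the mitotic chromosome surface (chromosome 10, 128096659 to 128126385, GENCODE release 29, GRCh38), was at 152 CPM (UMIs scaled to the total of the set of cells) in cluster 8, against 1.59 CPM in clusters 0, 3 and 4. The topoisomerase gene TOP2A was at 230 against 2.55 CPM, and the mitotic kinase gene CDK1 at 84.2 against 1.28 CPM. Cyclin B1, CCNB1, was at 215 against 3.44 CPM, and UBE2C, an enzyme of the anaphase-promoting complex pathway, at 212 against 1.5 CPM. In untreated cluster 6 the same 5 genes were at 225, 379, 127, 239 and 282 CPM. Cells with at least 7500 UMIs were thinned to that number, and the others were left out. That left out 29 cells of cluster 8, 1896 of clusters 0, 3 and 4 and 19 of untreated cluster 6. Of the thinned cells of cluster 8, 71.2% had an MKI67 or TOP2A UMI (80.2% of all its cells unthinned). The shares were 2.80% in clusters 0, 3 and 4 (5.81% unthinned) and 73.6% in untreated cluster 6 (86.6% unthinned). These values describe what the clustering used and are not tests.

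A total of 8306336 UMIs came from cluster 8, where the median cell had 21092 UMIs from 5350 genes, and 20323964 from untreated cluster 6, with medians of 21262 and 5408. Cells of clusters 0 and 4 were shallower, at medians of 12007 and 15941 UMIs, and those of cluster 3 had a median of 21819. Median mitochondrial shares were 2.81% in cluster 8 and 2.97% in untreated cluster 6. Of 18 cell barcodes shared by both libraries, 0 were in cluster 8 and 1 in untreated cluster 6. Cluster 8 held 30 untreated cells with a median of 1956 UMIs, and cluster 6 held 21 treated cells. Neither group was in the sets compared. Markers of other cell types were low: the 5 endothelial markers summed to 4.70 CPM in cluster 8 (CDH5, VWF and CLDN5 at 0), against 5.49 to 10.5 CPM in clusters 0, 3 and 4. The 5 immune markers summed to 17.5 against 14.4 to 21.2 CPM (CD3E and LYZ at 0 in cluster 8), and the 4 adipocyte markers to 0.361 against 0.0240 to 0.0507 CPM (ADIPOQ, PLIN1 and LPL at 0 in cluster 8). The 4 epithelial markers summed to 0.361 against 0.432 to 1.31 CPM (EPCAM, KRT5 and KRT14 at 0 in cluster 8) and the 4 melanocyte markers to 1.20 against 0.816 to 3.61 CPM (DCT at 0 in cluster 8). The 6 mural markers summed to 63.3 against 59.2 to 76.3 CPM, with 0 of them at 0, and the 6 mesenchymal stromal markers to 7512 against 8551 to 11414 CPM. The 5 smooth muscle markers, which include ACTA2 and CNN1, summed to 949 against 1485 to 2550 CPM, with 0 at 0.

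Across all genes, the cells of cluster 8 differed from the other treated cells first in their mitotic genes. Of 8990 genes at 10 CPM or more in either set, 1194 (13.3%) were at least 1.5-fold higher in cluster 8 than in clusters 0, 3 and 4, and 488 (5.43%) at least 1.5-fold lower, with a median log2 ratio of 0.14. "Higher" and "lower" below mean past this 1.5-fold line. The split depends on the scaling: TMM factors lower every log2 ratio of this comparison by 0.17 and leave 764 genes higher and 856 lower. Median-of-ratios factors lower it by 0.18, for 749 genes higher and 898 lower. The 12 largest ratios at 20 CPM or more were all of mitotic genes: UBE2C was 142-fold higher and the centrosomal kinase gene NEK2 124-fold. HMMR followed at 122-fold, CDC20 at 110-fold, the phosphatase gene CDC25C at 105-fold and the spindle gene DLGAP5 at 100.4-fold. The kinetochore gene SPC25, the kinesins KIF14, KIF2C and KIF18B, the checkpoint kinase gene BUB1B and MKI67 lay between 93.3-fold and 99.3-fold. Of 127 mitotic-list genes measured, 124 were higher (median log2 ratio 4.24), and of 50 replication-list genes measured, 45 were higher (median 1.78), with 0 lower in either, against a background of 13.3% higher over all genes. These lists describe a cluster drawn on the same genes and support nothing.

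The 12 smallest ratios at 20 CPM or more were smaller in size. The non-coding gene ENSG00000223786 was at 6.62 CPM in cluster 8, against 34.6 CPM in clusters 0, 3 and 4, but at 66.4, 7.38 and 10.2 CPM in these 3 taken singly. The methyltransferase gene INMT was at 6.14 against 23.4 CPM, and at 5.49 CPM in cluster 3 alone. TPD52L1 was at 13.1 against 37.3 CPM, and at 12.9 CPM in cluster 3. ENSG00000271945 was at 8.67 against 24.6 CPM, and at 6.41 CPM in cluster 4. For these last 3, the direction of the ratio thus depended on the cluster it was set against. PI16, a marker of adipose progenitors, was at 24.0 CPM in cluster 8, against 60.6, 78.0 and 90.1 CPM in clusters 0, 3 and 4. SYNPO2, an actin-binding protein of muscle, was at 86.0 against 333, 137 and 272 CPM, and the retinol dehydrogenase gene RDH10 at 78.6 against 314, 112 and 243 CPM. These were below all 3 clusters. BAMBI, a decoy receptor that dampens TGFB signalling, was at 8.79 against 35.0, 9.51 and 28.8 CPM. The remaining LINC00578, DMGDH, RDH10-AS1 and LINC02615 were between 2.95-fold and 3.83-fold lower than clusters 0, 3 and 4 pooled, and below each cluster singly. RDH10-AS1 was at 9.75 CPM, against 48.6, 19.8 and 13.2 CPM in clusters 0, 3 and 4. LINC02615 was at 9.99 against 44.2, 19.5 and 14.4 CPM. Against cluster 4 alone, RDH10-AS1 and LINC02615 were thus within 1.5-fold.

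Outside the cycle lists the ratios were smaller in size. The untreated values given beside them are ratios of cluster 6 over untreated clusters 1 and 2 and share no cells with the treated ones. In that comparison 15.1% of 9372 genes were higher and 6.12% lower. In the treated one 13.3% of 8990 genes were higher and 5.43% lower. HAS2, the hyaluronan synthase, was at 489 CPM in cluster 8, against 52.6, 174 and 44.0 CPM in clusters 0, 3 and 4, a 5.45-fold ratio, and the untreated ratio was 7.21-fold. The hyaluronan receptor CD44 was 1.84-fold higher (untreated ratio 1.89) and XYLT1, which starts proteoglycan chains, 1.79-fold higher (1.92). Of 15 nuclear transport and chaperone genes, 12 were higher in cluster 8 (median log2 ratio 0.86). Among them were the importin KPNA2 at 194 against 21.8 CPM, the tubulin TUBA1C at 485 against 131 CPM and RANBP1 at 330 against 112 CPM. The untreated dividing cells likewise had 12 of 15 higher (median 0.83). Of 11 immediate early genes, 3 were higher (FOSB, JUN and IER2) and 1 lower (DUSP1), or 27.3% and 9.09%. The untreated dividing cells had 3 of 13 higher and 0 lower. FOSL1, an AP-1 subunit, was 2.88-fold higher (untreated ratio 5.53) and was the 1 higher of 14 YAP and SRF targets. F3, tissue factor, was the 1 lower, at 77.4 against 163 CPM. That is 7.14% in each direction, near or under the shares over all genes.

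Matrix transcripts were on the low side in the dividing treated cells. Of 26 measured collagen and matrix genes, 10 were lower and 1, COL7A1, was higher, with a median log2 ratio of -0.49, against 5.43% lower and a median of 0.14 over all genes. The untreated dividing cells had 11 of 25 lower and a median of -0.54, against 6.12% lower and a median of 0.13 over all genes. Among the 10, the proteoglycan lumican (LUM) was at 149 against 327, 159 and 357 CPM in clusters 0, 3 and 4, and the collagen gene COL12A1 at 285 against 728, 397 and 405 CPM. Lumican was thus near cluster 3 and well below the others. Of 20 SMAD-response genes, 3 were lower (LDLRAD4, INHBA and ELN) and 1 higher (XYLT1), with a median of -0.18. LDLRAD4 was at 35.8 CPM in cluster 8, against 68.5, 57.3 and 24.5 CPM in clusters 0, 3 and 4, so its direction turned against cluster 4. Elastin, ELN, was at 539 CPM, against 1076, 542 and 1094 CPM, and inhibin beta A, INHBA, at 268 against 481, 321 and 401 CPM. Of 8 adipose progenitor markers measured, 4 were lower, PI16, CD55, DPP4 and MFAP5. MFAP5, a microfibril gene, was at 257 against 644, 332 and 792 CPM.

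Called members of the stress and inflammatory lists were for the most part lower, where 5.43% of all genes were lower and 13.3% higher. Of 16 p53 targets measured, 3 were lower and 0 higher: CDKN1A, a CDK inhibitor, at 69.5 against 150 CPM, ZMAT3 at 48.8 against 94.9 CPM, and TP53I3 at 161 against 251 CPM. CDKN1A was at 199, 79.3 and 155 CPM in clusters 0, 3 and 4. Of 9 inflammation and interferon genes measured, 4 were lower, IL1B, PTGS2 and ICAM1 among them, and HAS2 was higher. IL1B was at 4.82 CPM in cluster 8, against 16.4, 3.94 and 16.4 CPM in clusters 0, 3 and 4, so its direction turned against cluster 3. In the serine, proline and amino acid synthesis list, 3 of 14 were lower, the stress-response genes TRIB3, DDIT3 and CHAC1. BNIP3, of mitochondrial turnover, was the 1 lower of 16 glycolysis and hypoxia genes. In the integrin list CD44 and ITGA3 were higher and ITGA1 and ITGA11 lower, of 12 measured, and of 11 mesenchymal stromal genes CSPG4 was the 1 higher.

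Once dividing cells alone were compared, cluster 8 had lower DNA replication transcripts than untreated cluster 6, and its mitotic transcripts were closer. Of 62 replication-list genes measured, 35 were at least 1.5-fold lower in cluster 8 and 0 higher, with a median log2 ratio of -0.70. Of 129 mitotic-list genes, 27 were lower, 0 were higher and the median was -0.33. Over all 9380 genes of this comparison, 13.3% were lower and 8.38% higher, and the median was -0.06. A gene under 10 CPM in cluster 8 was measured only through untreated cluster 6 and could not be called higher. MCM2, RMI2, EXO1, E2F1, PKMYT1 and PLK4 below are among these. With a minimum of 20 CPM in either set, 24 replication-list genes were lower (median -0.69) and 23 mitotic-list genes (median -0.33). Over all 12 cycle lists, 77 of 227 measured genes (245 listed) were lower and 2 were higher. Outside the dividing clusters, treated clusters 0, 3 and 4 set against untreated clusters 1 and 2 gave a median of -0.25 over 24 replication-list genes, 4 of them lower, and of -0.14 over 38 mitotic-list genes, 8 lower and 4 higher, where 12.4% of 8940 genes were lower and 9.63% higher. Most cycle genes are under 10 CPM there, so these medians cover fewer members.

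**Figure D1:**
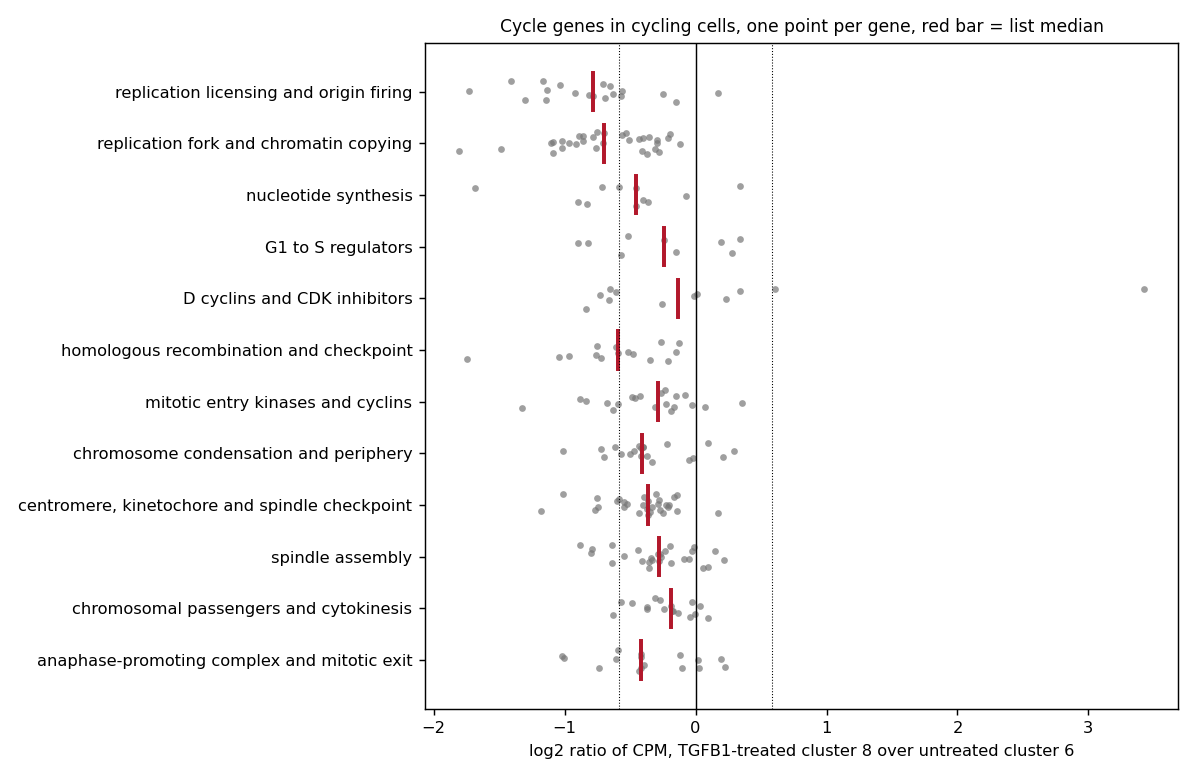
Log2 ratio of CPM in TGFB1-treated cluster 8 over untreated cluster 6, one point per measured cycle gene, grouped by list. Red bars are list medians and dotted lines mark 1.5-fold. The replication licensing median is -0.78 and the cytokinesis median -0.19, and the point far to the right is CDKN2B.

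Replication licensing genes, which load and fire the helicase at origins, were lower in 14 of 19 measured cases (median -0.78). Over all genes 13.3% were lower. MCM2 was at 3.61 CPM in cluster 8, against 11.96 CPM in untreated cluster 6, and MCM5 at 10.5 against 27.8 CPM. MCM4 was at 16.5 against 40.6 CPM and MCM3 at 20.3 against 45.7 CPM. These 4 helicase subunits were between 2.25-fold and 3.31-fold lower. The largest ratio was that of MCM2, which was measured only through untreated cluster 6. Of 32 measured fork and chromatin copying genes, 17 were lower (median -0.70). The primase subunit PRIM2 was at 70.5 against 246 CPM, and was also lower outside the dividing clusters, at 38.1 CPM in treated clusters 0, 3 and 4 against 163 CPM in untreated clusters 1 and 2. PCNA, the sliding clamp of the polymerases, was at 51.5 against 145 CPM, 2.81-fold lower (2.53 to 3.11), where the ratio outside the dividing clusters was 0.70. The polymerase subunits POLD3 and POLA2 were 2.15-fold and 2.13-fold lower.

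Of 11 nucleotide synthesis genes, 4 were lower (median -0.45), where 13.3% of all genes were lower. TYMS (chromosome 18, 657604 to 673578) was at 95.5 CPM in cluster 8, against 307 CPM in untreated cluster 6, which is 3.22-fold lower (2.99 to 3.47). It was at 7.402 CPM in treated clusters 0, 3 and 4, against 22.8 CPM in untreated clusters 1 and 2, so that the ratios were alike inside and outside the dividing clusters, at 0.31 and 0.32. Thymidine kinase, TK1, was at 69.3 against 123 CPM, and DUT, which clears dUTP, at 206 against 337 CPM. Of 15 homologous recombination and checkpoint genes, 8 were lower (median -0.59), with RMI2 at 5.66 against 18.9 CPM, the exonuclease gene EXO1 at 5.54 against 11.4 CPM, BRCA1 at 22.8 against 44.5 CPM and ATAD5 at 13.4 against 22.6 CPM. Among 9 G1 to S regulators, the transcription factor gene E2F1 (6.14 against 11.5 CPM) and the pocket protein gene RBL1 (16.5 against 29.1 CPM) were lower. MYBL2 (18.7 against 27.7 CPM) and CDCA5 (13.7 against 19.6 CPM) were within 1.5-fold.

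Both cycle genes that were higher are CDK inhibitors. CDKN2B, the inhibitor of CDK4 and CDK6 (chromosome 9, 22002903 to 22009363), was at 177 CPM in cluster 8, against 16.5 CPM in untreated cluster 6, a 10.7-fold ratio (9.54 to 12.1). It was at 349, 251 and 326 CPM in treated clusters 0, 3 and 4, so the dividing cells held less of it than each of them, and the same held in the untreated library, where clusters 1 and 2 had 34.8 and 33.1 CPM. After thinning, 56.7% of cluster 8 cells had a CDKN2B UMI (51.1 to 62.2; 74.7% unthinned), against 9.96% of untreated cluster 6 (8.003 to 12.2; 22.8% unthinned). CDKN1C, another inhibitor, was at 12.9 against 8.46 CPM, 1.52-fold higher (1.18 to 1.95), and this call was at the 1.5-fold line. CDKN1A, at 69.5 against 124 CPM, CDKN2C (30.9 against 51.4 CPM), CDK4 (57.1 against 90.4 CPM), cyclin D3, CCND3 (13.4 against 21.0 CPM) and CDKN3 (141 against 215 CPM) were lower, among 12 measured genes of this list. Cyclin D1, CCND1, was at 367 against 312 CPM. Of this list 41.7% were lower and 16.7% higher, where 13.3% and 8.38% of all genes were.

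Mitotic genes were for the most part on the low side but within the 1.5-fold line. Over all genes of this comparison 13.3% were lower and 8.38% higher. The shares lower were 30% of the entry list and 20% of both the condensation and the centromere list, not far above that background. With TMM factors 18 mitotic-list genes were lower in place of 27. Of 20 mitotic entry genes, 6 were lower (median -0.29): the inhibitory kinase PKMYT1 (6.14 against 15.4 CPM), the phosphatase gene CDC25B (31.3 against 57.6 CPM), WEE1 (20.7 against 37.0 CPM), MASTL (10.6 against 16.9 CPM), the centriole kinase PLK4 (8.19 against 12.6 CPM) and CDK1, which was 1.51-fold lower (1.38 to 1.64). CCNB1 was 1.11-fold lower (1.05 to 1.17), within the 1.5-fold line. Of 20 condensation genes, 4 were lower (median -0.41): HMGB2, a chromatin protein, at 186 against 374 CPM, TOP2A at 230 against 379 CPM, the histone gene H2AX at 52.5 against 85.0 CPM and the lamin gene LMNB1 at 41.1 against 62.9 CPM. MKI67 was 1.48-fold lower (1.39 to 1.58), next to the line. Of 30 centromere and kinetochore genes, 6 were lower (median -0.36), led by CENPM at 27.6 against 62.4 CPM and SPC24 at 14.3 against 28.8 CPM, with CENPH and CENPU at 25.8 against 43.8 and 29.9 against 50.2 CPM, and SPC25 and OIP5 the others.

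Spindle and cytokinesis genes had the list medians nearest to 0 among the mitotic lists. Their shares lower were 18.5% and 5.88%, near or under the 13.3% of all genes. That of the anaphase-promoting complex list was 31.25%. Of 27 spindle genes, 5 were lower (median -0.28), the tubulin regulator STMN1 at 400.2 against 739 CPM, the tubulin TUBB4B at 302 against 521 CPM, the kinesins KIF15 at 20.1 against 35.0 CPM and KIF22 at 27.6 against 42.9 CPM, and NUSAP1 at 112 against 175 CPM. HMMR was at 107 against 126 CPM, 1.17-fold lower (1.09 to 1.27). Of 17 genes of chromosomal passengers and cytokinesis, 1 was lower (median -0.19), the kinesin KIF20A at 32.7 against 50.7 CPM. ANLN, CIT and INCENP were 1.40-fold, 1.49-fold and 1.29-fold lower and within the line. Of 16 anaphase-promoting complex and exit genes, 5 were lower (median -0.42): FBXO5, an inhibitor of the complex, at 27.9 against 56.5 CPM, CDCA3 at 39.1 against 78.5 CPM, CDCA2 at 45.6 against 76.2 CPM, CDC20 at 79.9 against 122 CPM and PIMREG at 29.3 against 44.0 CPM. UBE2C was 1.33-fold lower (1.26 to 1.41).

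The same difference appeared in single cells at equal depth. Thinning to 7500 UMIs kept 319 cells of cluster 8 (29 left out) and 823 of untreated cluster 6 (19 left out). Replication-list UMIs per cell had a median of 16 in cluster 8 (10th to 90th percentile 8 to 27) and of 24 in untreated cluster 6 (12.2 to 46). Mitotic-list UMIs had medians of 128 (71 to 229) and 150 (65 to 282). No cell of cluster 8 reached 50 replication-list UMIs, its highest holding 48. For 0 of 319 cells the exact binomial upper limit is 1.15%. This limit is for cells placed in cluster 8, not for all dividing treated cells. In untreated cluster 6, 67 of 823 cells reached it, or 8.14% (6.36 to 10.2). The summed ratio of mitotic to replication UMIs was 7.98 in cluster 8 and 5.75 in untreated cluster 6. The upper range of replication content seen in untreated dividing cells was therefore not seen among the cells of cluster 8. Cluster 6 also held 21 treated cells, 6 of which reached 50 replication-list UMIs after thinning, and 0 of the 8371 thinned cells of clusters 0, 3 and 4 did. The treated cells of these clusters that reached 50 were thus all in cluster 6. The clusters were drawn on these same genes, so the 0 in cluster 8 describes how the cells were split and is not a test. With clusters 6 and 8 of each library pooled, an alternative chosen after seeing the data, the replication-list median was -0.57 with 30 genes lower, and the mitotic-list median -0.30 with 23 lower.

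**Figure D2:**
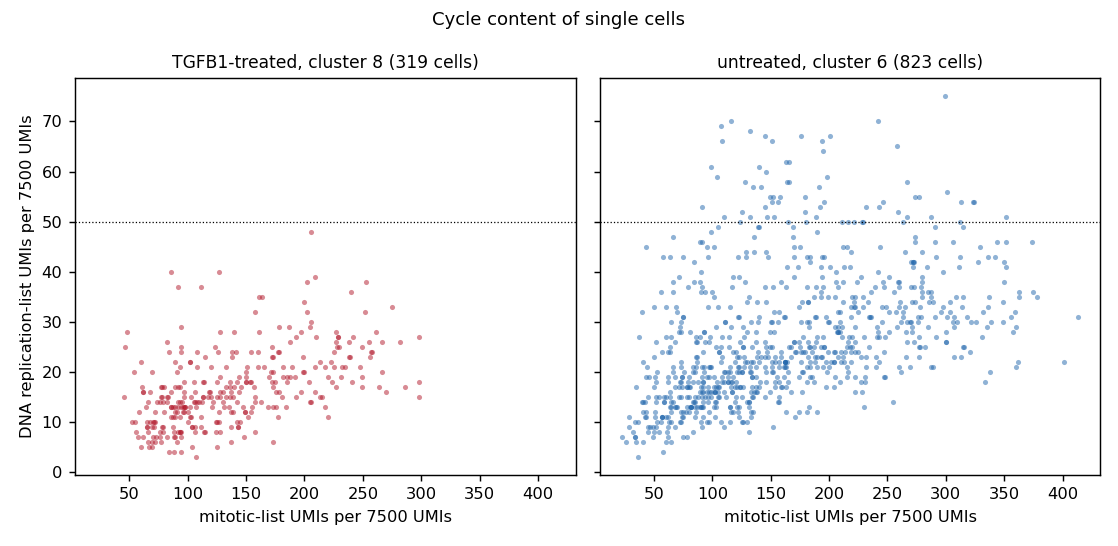
DNA replication-list UMIs (vertical) against mitotic-list UMIs (horizontal) in cells thinned to 7500 UMIs, one point per cell, in TGFB1-treated cluster 8 (left, 319 cells) and untreated cluster 6 (right, 823 cells). The dotted line is at 50 replication-list UMIs, which 0 cells of treated cluster 8 and 67 of untreated cluster 6 reached.

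The difference in replication-list UMIs was also present between cells of like mitotic content from 60 mitotic-list UMIs up, and not below that. In cells with 60 to under 120, 120 to under 180 and 180 or more mitotic-list UMIs, the mean replication-list UMIs were 13.3, 17.1 and 22.9 in cluster 8 (135, 96 and 79 cells), against 21.6, 28.4 and 32.9 in untreated cluster 6 (238, 204 and 321 cells). Under 60 mitotic-list UMIs the means were 15 in cluster 8 (9 cells) and 14.8 in untreated cluster 6 (60 cells), with medians of 12 in both. TYMS was at 70.7, 108 and 130 CPM in the 3 higher bins of cluster 8, against 199, 316 and 429 CPM in untreated cluster 6. Under 60 mitotic-list UMIs it was at 46.9 CPM in cluster 8, against 106 CPM in untreated cluster 6. In both libraries it was higher in cells with more mitotic UMIs, and in every bin it was lower in the treated cells. PCNA was at 43.7, 50.5 and 70.2 CPM in the 3 higher bins, against 116, 159 and 172 CPM. Across the cells of cluster 8, replication and mitotic UMIs had a Spearman correlation of 0.55 (319 cells), and across untreated cluster 6 one of 0.54 (823 cells). Cells of one library share its preparation, so these correlations are descriptions.

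**Figure D3:**
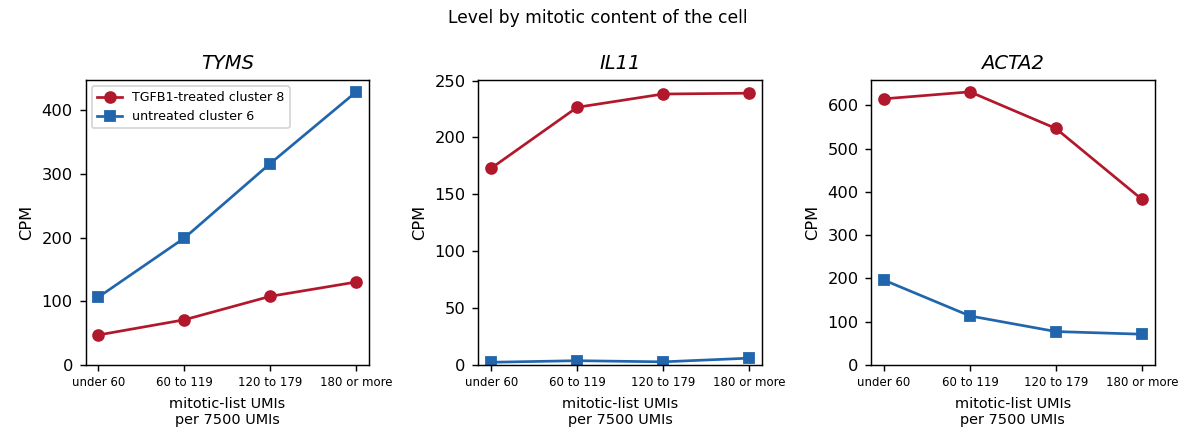
CPM of TYMS, IL11 and ACTA2 in dividing cells sorted by mitotic-list UMIs after thinning to 7500 UMIs, in TGFB1-treated cluster 8 (red circles) and untreated cluster 6 (blue squares). In cluster 8, IL11 is at 173 CPM in the lowest bin, which holds 9 cells, and between 226 and 239 CPM in the other 3, and ACTA2 lies between 383 and 631 CPM.

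Outside the cycle lists, most genes of the SMAD-response list were higher in the treated than in the untreated dividing cells. Of 20 SMAD-response genes, 16 were higher in cluster 8 than in untreated cluster 6 and 0 lower (median log2 ratio 1.70), against a background of 8.38%. Clusters 0, 3 and 4 over untreated clusters 1 and 2 gave 17 of 20 and a median of 1.79, against a background of 9.63%. The list was chosen with earlier results of these data known and holds KANK4, TSPAN13 and TSPAN2. These counts are therefore a description and support nothing. The largest ratios at 20 CPM or more were those of KANK4, an adhesion adaptor, at 30.1 against 0.295 CPM (102-fold, 46.2 to 280.5), and IL11. The non-coding gene ENSG00000250064, the SMAD inhibitor LDLRAD4, the tetraspanins TSPAN13 and TSPAN2, the tendon factor gene SCX and the protocadherin PCDH9 were between 14.6-fold and 49.0-fold higher. CDKN2B and PMEPA1, another SMAD inhibitor, were both 10.7-fold higher. At the other end, ENSG00000286695 was at 0.722 CPM in cluster 8, against 61.3 CPM in untreated cluster 6, and FGF13 at 1.08 against 38.1 CPM. PTX3, a soluble pattern receptor, was at 6.62 against 155 CPM and the claudin CLDN11 at 30.9 against 396 CPM. CNKSR3, SLC14A1, SLC7A14-AS1, ENSG00000232855, B3GALT1 and the interferon-induced IFIT2 were between 13.0-fold and 28.9-fold lower.

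IL11 transcript was at a higher level in treated cluster 8 than in each of treated clusters 0, 3 and 4. IL11, a cytokine of the interleukin 6 family (chromosome 19, 55364389 to 55370463), was at 231 CPM in cluster 8, against 110 CPM in cluster 0, 183 CPM in cluster 3 and 160 CPM in cluster 4. Untreated cluster 6 had 4.08 CPM and untreated clusters 1 and 2 had 2.80 and 2.64 CPM. Among these treated clusters the order was 8, 3, 4 and 0, and other treated clusters were not compared. Over clusters 0, 3 and 4 pooled the ratio was 1.59 (1.52 to 1.67), or 0.67 on the log2 scale, close to the 1.5-fold line. With TMM factors it was 0.50 and with median-of-ratios factors 0.49, both under the 1.5-fold line, and against cluster 3 alone it was 0.33. The higher sign held in each of these settings, and the 1.5-fold call did not. Over untreated cluster 6 the ratio was 56.5 (45.4 to 71.3), and outside the dividing clusters it was 53.04.

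**Figure D4:**
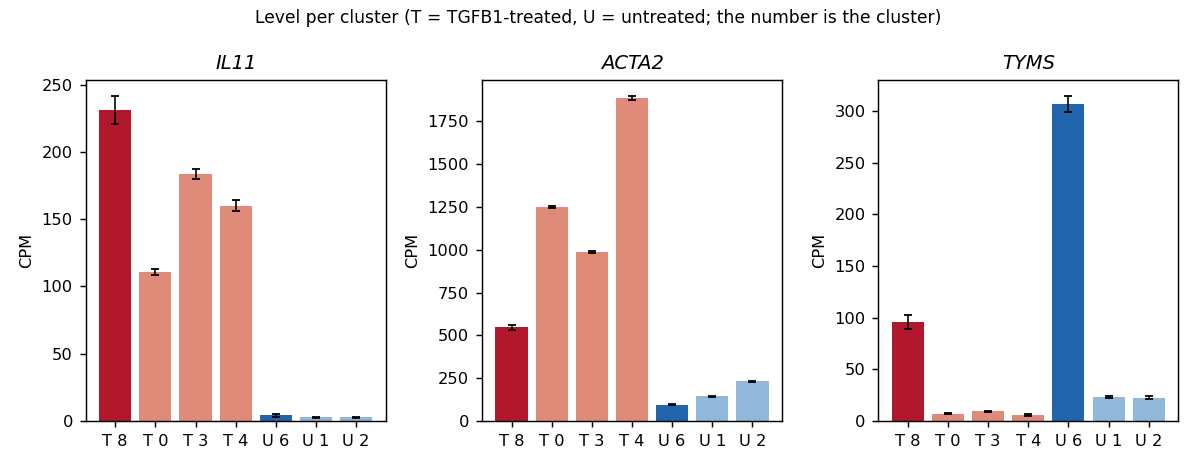
CPM of IL11, ACTA2 and TYMS in 4 TGFB1-treated clusters (T, red) and 3 untreated clusters (U, blue), with the dividing clusters in the darker shade; bars start at 0 and error bars are 95% Poisson intervals for counting error. IL11 is at 231 CPM in treated cluster 8 and ACTA2 at 547 CPM, below treated clusters 0, 3 and 4.

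The share of cells with an IL11 UMI differed less than the level. After thinning it was 62.1% in cluster 8 (56.5 to 67.4, and 79.3% unthinned), against 59.9% in cluster 3 (57.9 to 61.9, and 83.6% unthinned). It was 53.9% in cluster 4 (70.5% unthinned) and 48.3% in cluster 0 (61.3% unthinned). Thinning left out 1663 of the 5303 cells of cluster 0, 127 of 2421 in cluster 4, 106 of 2543 in cluster 3 and 29 of 348 in cluster 8. The intervals of clusters 8 and 3 overlap, and the unthinned share was lower in cluster 8 than in cluster 3. Untreated cluster 6 had 2.43% (1.49 to 3.73; 8.19% unthinned), and untreated clusters 1 and 2 had 2.13% and 1.82%. Thinned cells of cluster 8 held a mean of 1.69 IL11 UMIs and a highest of 15, against 1.36 and 13 in cluster 3. The tenth of cells with the most held 40.9% of the IL11 UMIs in cluster 8 and 40.2% in cluster 3. The immune marker PTPRC, which these cells should lack, had a UMI in 0.313% of thinned cluster 8 cells (0.00794 to 1.73).

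Within cluster 8, IL11 was at a similar level in cells with and without mitotic marker UMIs, with intervals that overlapped. Cells with an MKI67 or TOP2A UMI after thinning (227 cells) had 231 CPM (219 to 243), against 230 CPM (209 to 252) in the 92 cells without. The shares with an IL11 UMI were 62.6% (55.9 to 68.9) and 60.9% (50.1 to 70.9). The cells without were also rich in mitotic-list UMIs, with a median of 89, against 149 in the cells with one. Clusters 0, 3 and 4 had medians of 23, 29 and 26, so this split does not set dividing cells against cells that do not divide. From 60 mitotic-list UMIs up, IL11 was at 226, 238 and 239 CPM over the 3 bins, with an IL11 UMI in 60.7%, 66.7% and 62.0% of thinned cells. In the 9 cells under 60 it was at 173 CPM (132 to 223), with an IL11 UMI in 33.3% (7.49 to 70.1). The Spearman correlation of mitotic-list and IL11 UMIs was 0.08 over 319 cells. The few cells of the other clusters with an MKI67 or TOP2A UMI were not alike: 147 cells of cluster 0 had 106 CPM (93.7 to 120), against 109 CPM in the cells without. In cluster 3, 56 such cells had 120 CPM (102 to 140), against 185 CPM (181 to 188). In cluster 4, 31 such cells had 180 CPM (144 to 222), against 160 CPM (156 to 164). In cluster 3, then, the summed IL11 level was lower in the cells with these UMIs. The shares of thinned cluster 3 cells with an IL11 UMI had overlapping intervals, at 53.6% (39.7 to 67.0) against 60.1% (58.1 to 62.0).

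Among its cytokine family, IL11 was the 1 member higher in the dividing treated cells. Of 12 members measured of 16 listed, IL11 was higher in cluster 8 than in clusters 0, 3 and 4 and IL6 was lower, with a median of -0.07. That is 8.33% in each direction, where 13.3% of all genes were higher, 5.43% lower and the median was 0.14. The list as a whole thus did not stand out, and the IL11 call did not hold with TMM or median-of-ratios factors. IL6 was at 81.1 CPM, against 131 CPM, and in the untreated library at 40.1 CPM in cluster 6, against 92.3 CPM in clusters 1 and 2. LIF was at 14.7 against 15.9 CPM. The shared receptor subunit gene IL6ST was at 134 against 181 CPM and the oncostatin M receptor OSMR at 72.1 against 89.7 CPM, and the IL11 receptor IL11RA at 12.2 against 13.1 CPM. LIFR was at 13.8 against 12.5 CPM and the ligand CLCF1 at 10.1 against 8.44 CPM. Of the signal transducers, STAT3 was at 99.1 against 101 CPM, JAK1 at 210 against 228 CPM, JAK2 at 18.7 against 17.8 CPM and TYK2 at 12.9 against 9.01 CPM. The ligand CTF1, the feedback inhibitor SOCS3 and IL6R were under 10 CPM in both sets, and OSM was at 0 UMIs in cluster 8.

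Most contractile genes were within 1.5-fold of the other treated cells, and a subset with ACTA2 was lower. Of 33 measured of 36, 7 were lower in cluster 8 than in clusters 0, 3 and 4, and 2 were higher. Their median log2 ratio was -0.10, where the median over all genes was 0.14, 5.43% were lower and 13.3% higher. With TMM factors 11 were lower and 1 higher, and the median was -0.27 beside -0.04 over all genes. Smooth muscle actin, ACTA2 (chromosome 10, 88935074 to 88991339), was at 547 CPM, against 1249, 987 and 1885 CPM in clusters 0, 3 and 4, a ratio of 0.42 (0.41 to 0.43). It was below all 3. The kinase of myosin light chain, MYLK, was at 153 against 347 CPM, the non-muscle myosin MYH10 at 295 against 589 CPM and SYNPO2 at 86.0 against 256 CPM. The thin-filament genes CALD1 and TPM2 were at 3077 against 4927 and 3651 against 5699 CPM, and LMOD1, which caps and nucleates actin, at 89.1 against 141 CPM. The 2 higher were smoothelin, SMTN, at 45.0 against 19.4 CPM, and the tropomyosin TPM3 at 342 against 213 CPM.

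The other contractile members were within 1.5-fold. Transgelin, TAGLN, was at 6068 against 8867 CPM, calponin, CNN1, at 312 against 442 CPM, CNN3 at 300 against 423 CPM and the myosin light chain MYL9 at 957 against 1374 CPM. Their log2 ratios lay between -0.55 and -0.50. FLNA was at 540 against 676 CPM and TPM1 at 6600 against 7624 CPM. The remaining 18 (MYL6, MYL12A, MYL12B, PDLIM7, CSRP1, TLN1, TGFB1I1, CNN2, ACTN1, ACTN4, ACTB, ACTG1, TNS1, MYH9, ZYX, TPM4, PALLD and VCL) had log2 ratios between -0.19 and 0.34. ACTG2, DES and MYH11 were under 10 CPM in both sets. In the untreated library, dividing cells over clusters 1 and 2 had 7 of 33 lower and 3 higher (median -0.08). Over all genes of that comparison 6.12% were lower and 15.1% higher (median 0.13). ACTA2 was at 95.3 CPM in untreated cluster 6, against 144 and 232 CPM in clusters 1 and 2. Over untreated cluster 6, cluster 8 had 21 of 33 contractile genes higher and 0 lower (median 0.69), where 8.38% of all genes were higher and 13.3% lower. Outside the dividing clusters 22 of 33 were higher and 0 lower (median 0.72), where 9.63% of all genes were higher and 12.4% lower. ACTA2 was 5.74-fold higher in the first of these comparisons and 7.36-fold in the second, and TPM1 6.28-fold and 5.37-fold.

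**Figure D5:**
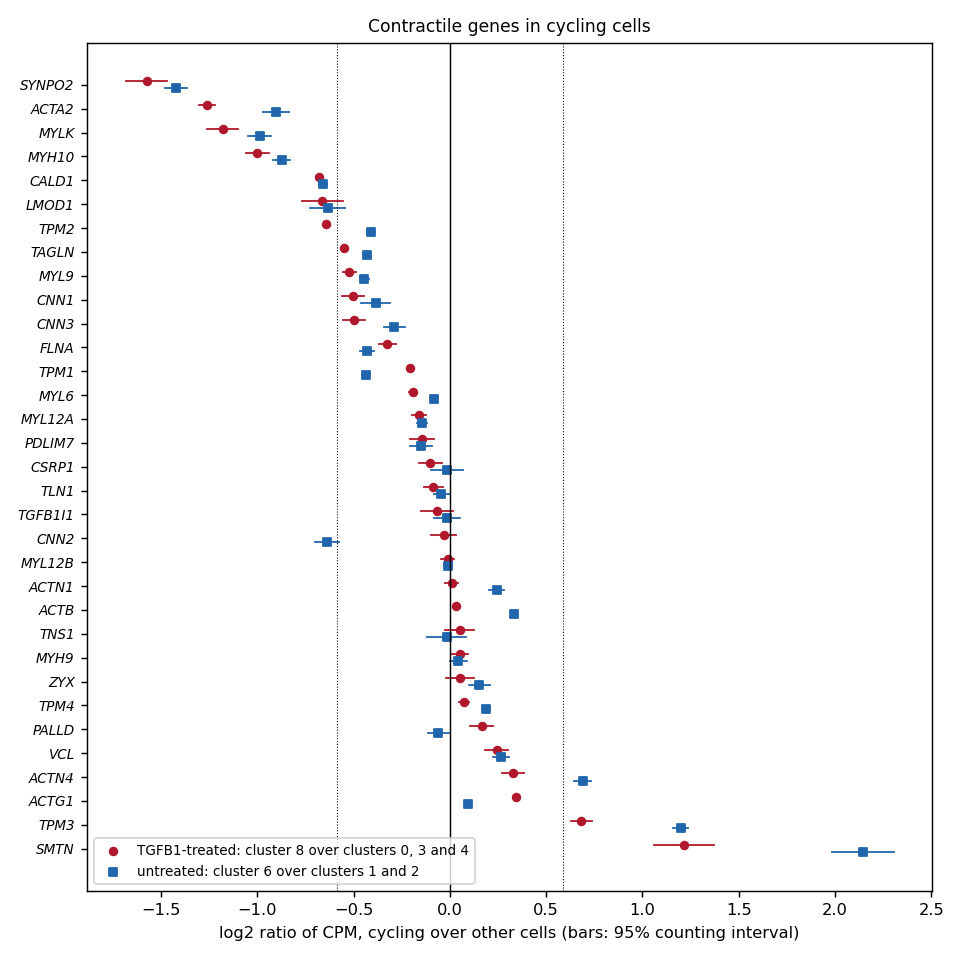
Log2 ratio of CPM of the 33 measured contractile genes in dividing over other cells, in the TGFB1-treated library (red circles, cluster 8 over clusters 0, 3 and 4) and the untreated library (blue squares, cluster 6 over clusters 1 and 2), with 95% counting intervals. Dotted lines mark 1.5-fold; SYNPO2, ACTA2, MYLK and MYH10 are the lowest and SMTN the highest in the treated library.

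In single cells the contractile list took a median of 362 of 7500 UMIs in cluster 8 (10th to 90th percentile 264 to 476), against 430 in clusters 0, 3 and 4 (296 to 593), and 193 in untreated cluster 6 against 197 in untreated clusters 1 and 2. Within cluster 8 the cells with an MKI67 or TOP2A UMI had a median of 354 (227 cells) and those without one 382.5 (92 cells). ACTA2 was at 631, 547 and 383 CPM in cells of 60 to under 120, 120 to under 180 and 180 or more mitotic-list UMIs, while CNN1 was at 319, 319 and 305 CPM and TPM1 at 6688, 6529 and 6721 CPM. In the 9 cells under 60 they were at 615, 243 and 5905 CPM. From 60 up, ACTA2 was lower where mitotic content was higher, and CNN1 and TPM1 were nearly level. The Spearman correlation of mitotic-list and contractile-list UMIs was -0.11 over 319 cells, and that of IL11 and contractile-list UMIs 0.08. Mitotic UMIs and depth had one of -0.17 in these cells, and the part of depth in the ACTA2 values was not tested.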

How the data were processed

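Single-cell transcripts of 2 libraries were measured, with 1 library per condition. Cell Ranger 9.0.1, Seurat and GRCh38 are named, with no roles, in the submitters' processing notes. Raw UMI counts of 38606 genes in 20656 cells were deposited by the authors, and their deposited cell table gives the library, counts of UMIs and genes, the percent of mitochondrial UMIs and the cluster at resolution 0.4. Cell sums matched this table. No cell had fewer than 502 genes, and the highest mitochondrial percent was 5.00. Reads shared by overlapping or near-identical genes could not be assessed.

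UMIs were summed over the cells of a set and scaled to CPM. Ratios carry exact conditional binomial (Clopper-Pearson) intervals and shares exact binomial ones. Genes counted from 10 CPM in either set, as higher or lower from 1.5-fold. A gene under 10 CPM in one set was measured through the other, and could not be called higher in the first. A count of 0 UMIs allows up to 3 UMIs. No p-value was computed and cells were not used as replicates. Clusters are the authors', drawn on these cells' genes. Cells with at least 7500 UMIs were also thinned to 7500 without replacement, and cells with fewer were left out of the thinned values. No doublet caller was run. edgeR 4.0.16 (R 4.3.3) gave TMM factors only. Calculations ran in scipy 1.17.1, numpy 2.4.6, matplotlib 3.10.9 and pandas 2.3.3 under Python 3.11.15, and the steps were tested on simulated data.

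The cells, gene lists and tests were chosen with earlier results of these data known. The rule for named genes took the 12 largest and 12 smallest ratios to the other treated cells and the 10 largest and 10 smallest to untreated cluster 6, at 20 CPM or more, the 5 markers, all measured interleukin 6 family and contractile genes, up to 4 members of each cycle list with the largest absolute log2 ratio to untreated cluster 6, and up to 3 of each other list by the ratio to the other treated cells. Further called members of lists were named after their values were seen, as were CCND1, RGS4, KCNQ5 and the IL11 shares. Some list members are counted but not reported here. Positions are from GENCODE release 29, and promoters from RefSeq, with 111 of 130 mitotic, 58 of 69 replication and 31 of 36 contractile genes matched by symbol, where the first listed window of a gene was used. Contractile promoters held a CHR match in 12.9%, a CCAAT match in 51.6% and an E2F match in 0 of 31. Alternatives were other scalings, equal weight per cell, thinning, a minimum of 5 or 20 CPM, cells with 2000 genes or more, leaving out the 5% of cells with the most UMIs, cells with an MKI67 or TOP2A UMI, totals without the cycle lists, each treated cluster alone, and 2 added after seeing the data.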

Additional observations from a re-analysis of the deposited data

Results flagged for a closer look

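In 2 of the genes measured, the ratio of treated to untreated dividing cells and the ratio of treated to untreated other cells were past 1.5-fold in opposite directions. These genes were named after their values were seen. RGS4, a regulator of G protein signalling, was at 15.2 CPM in treated cluster 8, against 35.2 CPM in untreated cluster 6 (ratio 0.431), and at 18.7 CPM in treated clusters 0, 3 and 4, against 5.81 CPM in untreated clusters 1 and 2 (ratio 3.22). The potassium channel gene KCNQ5 was at 385 against 642 CPM in the dividing cells (ratio 0.6) and at 305 against 194 CPM in the others (ratio 1.57). These differences were not tested.

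The 21 treated cells that the authors' clustering put with the untreated dividing cells in cluster 6 were outside the comparisons. Of these, 28.6% (6 cells, 11.3 to 52.2) held 50 or more replication-list UMIs after thinning, against 8.14% of the untreated cells of that cluster. Their median was 37 replication-list and 158 mitotic-list UMIs, and the summed ratio of mitotic to replication UMIs was 4.15. An IL11 UMI was seen in 23.8% of them (8.22 to 47.2; 52.4% unthinned), and the contractile list took a median of 251 of 7500 UMIs.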

How the results depend on the processing

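No paired analysis was possible because the labels carry no replicate numbers, and leaving out a library would leave a condition empty. Across 2680 values of single named genes under other settings, 2595 had the sign of the reported value. Of 1861 values of genes past 1.5-fold, 1791 were still past it. These counts include the settings with another minimum CPM, which leave the ratio of a single gene unchanged. Values from those settings could not change sign or fold, so the counts overstate the agreement. By a label separate from these counts, 735 of the 2680 values had moved from the reported value and 4 were reversed. The cause of each change below was not tested. In cluster 8 over clusters 0, 3 and 4, TMM factors gave 764 genes higher and 856 lower, a log2 ratio of 0.50 for IL11 and a contractile median of -0.27 with 11 members lower and 1 higher. Median-of-ratios factors gave 749, 898, 0.49, -0.28, 11 and 1 for the same values. Equal weight for each cell gave 819 genes lower and 0.78 for IL11. Against cluster 0 alone 928 genes were lower, IL11 was at 1.07 and the contractile median at -0.02. Against cluster 3 alone 315 genes were lower, IL11 was at 0.33, and the contractile median was -0.18 with 4 members lower and 1 higher. There, IL1B (0.29), INMT (0.16) and TPD52L1 (0.02) turned to a positive log2 ratio. Against cluster 4 alone 3386 genes were higher, IL11 was at 0.53, the contractile median was -0.31 with 6 members higher, and ENSG00000271945 (0.44) turned positive. In cluster 8 over untreated cluster 6, the replication-list median lay between -0.72 and -0.57 and the mitotic-list median between -0.40 and -0.24 over the alternatives, and the counts of genes and of members lower stayed within 1.5 times the reported ones. The lowest mitotic count, 18 lower, came with either scaling and with cells of 120 or more mitotic-list UMIs. That last setting and the pooling of clusters 6 and 8, which gave the replication median nearest 0, were chosen after seeing the data. Depth limits what is said of genes near 10 CPM in cluster 8, where 3 UMIs are 0.361 CPM.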
